A study of Mus musculus with 6 samples.

Results

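The transporters described here were the 82 genes of the mouse solute carrier families Slc1, Slc2, Slc3, Slc6, Slc7, Slc16, Slc38 and Slc43, which carry amino acids, glucose, lactate and related small molecules. They were taken by gene symbol from the 45777 genes listed, with Slc7a10 not analysed here. RNA had been sequenced from splenic CD4+ T cells of 7-week-old female C57BL/6 mice, sorted by flow cytometry into cells with the surface protein Lrig1 (CD4+Lrig1+) and cells without it (CD4+Lrig1-). No treatment or altered allele was named for either group, and each gate held a mixture of CD4+ cells. The labels listed 3 samples per group, and 4 libraries could be used, 1 CD4+Lrig1+ and 1 CD4+Lrig1- library in each of 2 deposited tables, called set 1 and set 2. The sources did not say whether the libraries came from separate mice, so p-values measured only the spread between these libraries.

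T cells take up glutamine, neutral and cationic amino acids and glucose to grow, and release lactate when glycolysis is fast. Slc1a5 (ASCT2) and some Slc38 carriers, such as Slc38a1 and Slc38a2, bring in glutamine. The heavy chain Slc3a2 (CD98) pairs with light chains of the Slc7 family such as Slc7a5 (LAT1). Slc2a1 (GLUT1) and Slc2a3 (GLUT3) carry glucose, and Slc16a1 (MCT1) and Slc16a3 (MCT4) carry lactate together with protons.

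Library totals were 44865070 to 59977951 estimated counts. Levels are CPM (counts scaled by library size and composition), or FPKM (which also divides by transcript length) where genes were compared with each other. The sets stood apart: log2 CPM correlated at 0.960 and 0.959 between the libraries of a set and at 0.908 between sets within a group. Lrig1 was at 221 CPM in CD4+Lrig1+ and 75.4 CPM in CD4+Lrig1- cells of set 1, and at 129 and 36.7 CPM in set 2. Cd4 lay between 924 and 1100 CPM, and Cd3e, a chain of the T cell receptor complex, between 453 and 632 CPM, in the 4 libraries. The 8 regulatory T cell markers, among them Foxp3, summed to 2442 and 2320 CPM in CD4+Lrig1+ cells and to 254 and 200 CPM in CD4+Lrig1- cells. The 8 natural killer cell markers summed to 18.0 and 46.9 CPM in CD4+Lrig1+ cells against 60.9 and 166 CPM in CD4+Lrig1- cells. The 12 myeloid markers summed to 54.0 and 45.5 CPM in set 1 and to 266 and 251 CPM in set 2, CD4+Lrig1+ first. The 10 B cell markers summed to 98.3 and 78.5 CPM in set 1 and to 391 and 775 CPM in set 2, in the same order. In bulk RNA, fewer cells of a type and less RNA per cell cannot be told apart, and the part of these markers in the results below was not tested.

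Of the 82 transporter genes, 35 had 10 or more counts in every library, 14 in some of the libraries and 33 in none. Counts of 10 or more were found for 42 transporters in CD4+Lrig1+ and 39 in CD4+Lrig1- cells of set 1, and for 45 and 42 in set 2. The Slc43 family reached 10 counts in every library with 3 of 3 genes, Slc16 with 8 of 14, Slc38 with 6 of 11, Slc7 with 6 of 14 and Slc2 with 5 of 12. It was reached by 2 of 7 Slc1 genes, 1 of 2 Slc3 genes and 4 of 19 Slc6 genes. The other Slc6 genes include carriers of neurotransmitters. 20 transporters were listed at 0 in all 4 libraries. After the filter on low counts, 41 transporters and 16123 genes entered the test.

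A few carriers made up most of the transporter RNA. By mean FPKM over the 4 libraries, the order began with Slc1a5 at 62.1 ± 33.1 (SD, n = 4), Slc3a2 at 41.2 ± 5.01, Slc38a2 at 36.5 ± 17.8, Slc38a10 at 24.5 ± 5.18 and Slc38a1 at 21.5 ± 6.51. These 5 genes held 52.6% of the transporter FPKM. Their neighbours in the order did not differ beyond their spread, and the sets differed more than the groups for Slc1a5, which lay at 100 and 78.0 FPKM in set 1 and at 41.9 and 28.0 FPKM in set 2, CD4+Lrig1+ first. The plot of FPKM by library shows this split by set for Slc1a5, Slc38a2 and Slc38a9, and a split by group for Slc16a5, Slc16a3, Slc43a1 and Slc43a3.

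**Figure D1:**
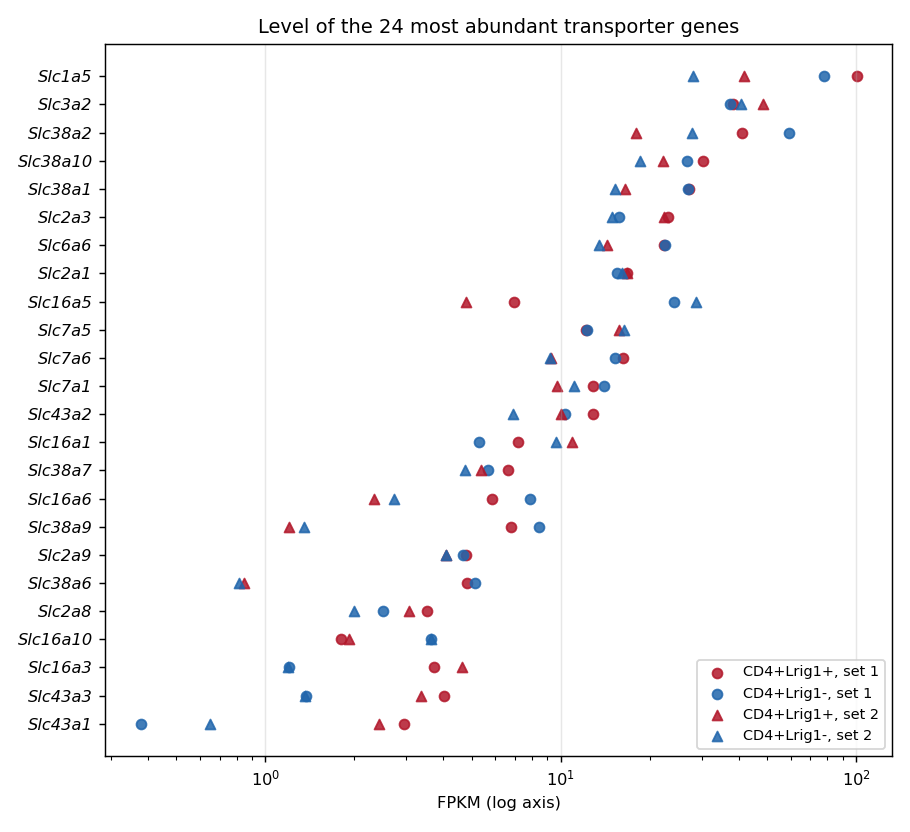
FPKM on a log axis of the 24 transporters with the highest mean, 1 point per library, coloured by group and shaped by set. Slc16a5 lies at 4.78 and 6.95 FPKM in CD4+Lrig1+ cells and at 24.2 and 28.8 FPKM in CD4+Lrig1- cells.

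In edgeR's quasi-likelihood test of CD4+Lrig1+ against CD4+Lrig1- libraries, no transporter passed an adjusted p of 0.05, and 0% of all genes were called higher and 0% lower; the smallest adjusted p of any gene was 0.501. At an unadjusted p under 0.05, 3 transporters were higher (Slc16a3, Slc43a1 and Slc43a3) and 2 were lower (Slc16a5 and Slc16a10), where 4.18% of all genes were higher and 1.41% were lower. DESeq2's Wald test called Slc43a1 higher (adjusted p = 0.0498) and Slc16a5 lower (adjusted p = 0.00119), beside 1.63% and 0.31% of all genes. Adding a term for the set to the quasi-likelihood fit, which leaves 1 residual degree of freedom, called 9 transporters higher (22.0% of the 41) and 4 lower (9.76%), against 14.6% and 12.8% of all genes. Adjusted p-values below are given without and then with this set term. With 2 libraries a group, the smallest p that exact permutation of the libraries allows for a gene is 0.333.

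By size, 7 transporters were at least 2-fold higher in CD4+Lrig1+ cells in both sets (17.1% of the 41, against 7.37% of all genes): Slc6a8, Slc7a2, Slc7a8, Slc16a3, Slc16a9, Slc43a1 and Slc43a3. Only Slc16a5 and Slc16a10 among the 41 were at least 2-fold lower in both sets (4.88%, against 3.01% of all genes). At 1.5-fold, 8 were higher and 5 lower, against 11.7% and 7.02% of all genes. Some genes passed the filter through the group where they were high, so the same count was taken over the 35 transporters with 10 counts in every library. There 5 were higher (14.3%, against 5.38% of all genes) and 3 lower (8.57%, against 2.40%). The median log2 ratio over the 41 was 0.09 in set 1 and 0.08 in set 2, beside 0.01 and -0.06 over all genes. In 9 of the 41 (22.0%) both CD4+Lrig1+ libraries were above both CD4+Lrig1- libraries, and in 5 (12.2%) both were below. Over all genes tested, these shares without overlap of the groups were 14.3% and 11.8%.

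**Figure D2:**
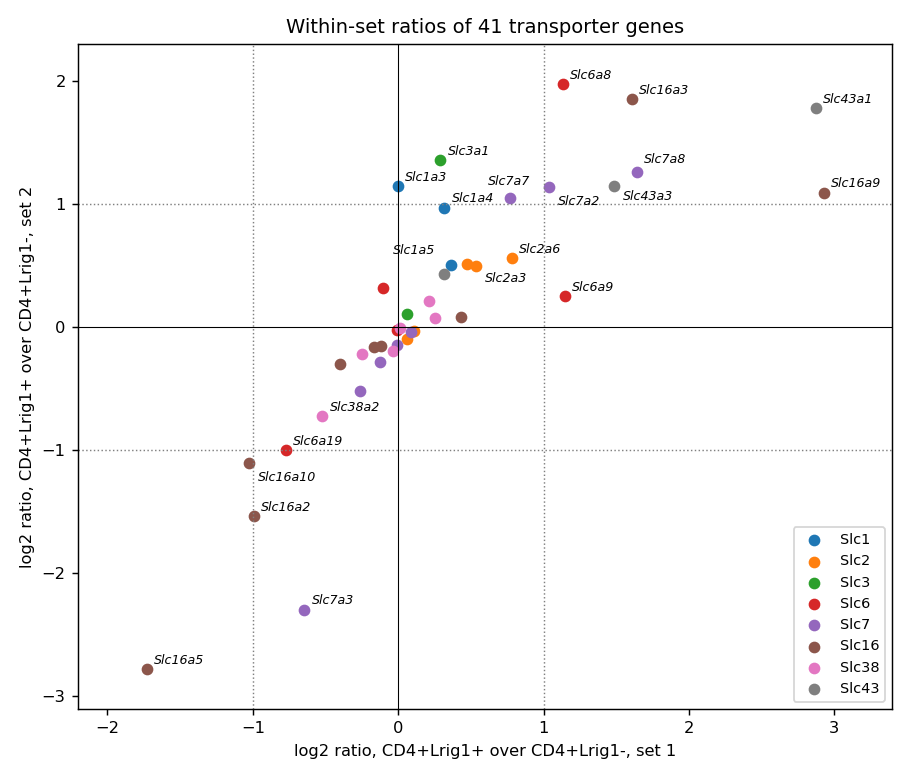
CD4+Lrig1+ to CD4+Lrig1- log2 ratio in set 1 (x axis) and set 2 (y axis) for the 41 tested transporters, coloured by family, with dotted lines at 2-fold. Slc16a3, Slc43a1 and Slc43a3 lie beyond the line in both sets at the top right, and Slc16a5 lies at -1.73 and -2.78 at the bottom left.

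The lactate and monocarboxylate carriers of the Slc16 family held the widest range. Slc16a3, the MCT4 carrier known for lactate export from glycolytic cells, was at 9.69 and 12.7 CPM in CD4+Lrig1+ cells and at 3.15 and 3.50 CPM in CD4+Lrig1- cells of sets 1 and 2. Both CD4+Lrig1+ libraries were above both CD4+Lrig1- libraries. The ratio was 3.07-fold in set 1 (95% interval 2.56 to 3.71) and 3.64-fold in set 2 (3.10 to 4.29), intervals that cover counting error only. The fitted log2 difference was 1.75 with an SE of 0.39 (adjusted p = 0.635, and 0.000274 with the set term). Slc16a3 (gene ID 80879) spans 120948484 to 120959000 on chromosome 11 of GRCm38.

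Slc16a1, the MCT1 lactate carrier, lay at 33.0 and 24.4 CPM in set 1 and at 53.6 and 50.6 CPM in set 2, CD4+Lrig1+ first, so the groups overlapped. Within each library, the FPKM of Slc16a3 was 0.522 and 0.424 of that of Slc16a1 in CD4+Lrig1+ cells, and 0.228 and 0.123 of it in CD4+Lrig1- cells. Slc16a1 thus had the higher FPKM of the pair in all 4 libraries.

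Slc16a5 (MCT6), a little studied member of the family, was at 18.5 and 13.1 CPM in CD4+Lrig1+ cells and at 61.5 and 89.8 CPM in CD4+Lrig1- cells. The groups did not overlap. Its fitted log2 difference was -2.26 with an SE of 0.38 (adjusted p = 0.560, and 0.000423 with the set term). It held 25.3% and 17.9% of the FPKM of the Slc16 family in CD4+Lrig1+ cells, and 54.7% and 59.9% in CD4+Lrig1- cells. Slc16a5 (gene ID 217316) spans 115462405 to 115474398 on chromosome 11 and shares exon sequence with Gm11695 on the opposite strand. Slc16a10 (TAT1), a carrier of aromatic amino acids, was at 9.56 and 10.6 CPM in CD4+Lrig1+ cells and at 19.5 and 22.8 CPM in CD4+Lrig1- cells, again without overlap. Its fitted log2 difference was -1.07 with an SE of 0.30 (adjusted p = 0.699, and 0.000423 with the set term). The natural killer cell marker sums given above were also lower in CD4+Lrig1+ cells in both sets, as were the 2 CD8 T cell markers at 14.1 against 19.5 CPM and 51.6 against 97.3 CPM. The regulatory T cell marker sums were higher in CD4+Lrig1+ cells, at 2442 and 2320 CPM against 254 and 200 CPM. The myeloid sums were also higher in both sets, and the B cell sums went both ways. Whether any of these cells contribute to the levels of Slc16a5 or Slc16a10 was not tested.

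Slc16a6 (MCT7) was at 27.2 against 35.9 CPM in set 1 and at 11.1 against 13.8 CPM in set 2, lower in CD4+Lrig1+ cells within each set but overlapping across sets (adjusted p = 1.00, and 0.0311 with the set term). Its exons overlap those of Amz2, Arsg and Gm25540. Slc16a9 (MCT9) had 13 and 0 counts in set 1 and 118 and 51 counts in set 2, CD4+Lrig1+ first, so its ratio in set 1 depends on the constant added before the logarithm.

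All 3 genes of the Slc43 family were called higher with the set term. Slc43a1 (LAT3), a carrier of large neutral amino acids such as leucine, was at 7.44 and 6.76 CPM in CD4+Lrig1+ cells and at 0.982 and 1.94 CPM in CD4+Lrig1- cells. The lower CD4+Lrig1+ value was above the higher CD4+Lrig1- value. Its ratio was 7.58-fold in set 1 (95% counting interval 5.59 to 10.5) and 3.48-fold in set 2 (2.79 to 4.35), with a fitted log2 difference of 2.28 and an SE of 0.56 (adjusted p = 0.654, and 0.00134 with the set term). Slc43a3, a carrier of purine nucleobases, was at 11.2 and 9.65 CPM against 3.99 and 4.33 CPM, also without overlap. Its fitted log2 difference was 1.33 with an SE of 0.36 (adjusted p = 0.688, and 0.00103 with the set term). Both genes lie on chromosome 2, Slc43a1 (gene ID 72401) from 84838855 to 84863586 and Slc43a3 (gene ID 58207) from 84936545 to 84958509. Slc43a2 (LAT4), the most abundant of the family, was at 95.9 and 78.4 CPM against 77.0 and 58.0 CPM, and its lower CD4+Lrig1+ value was just above its higher CD4+Lrig1- value. Its adjusted p was 1.00, and 0.00911 with the set term. Slc43a1 had 0.228 and 0.243 of the FPKM of Slc43a2 in CD4+Lrig1+ cells and 0.0367 and 0.0943 of it in CD4+Lrig1- cells.

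**Figure D3:**
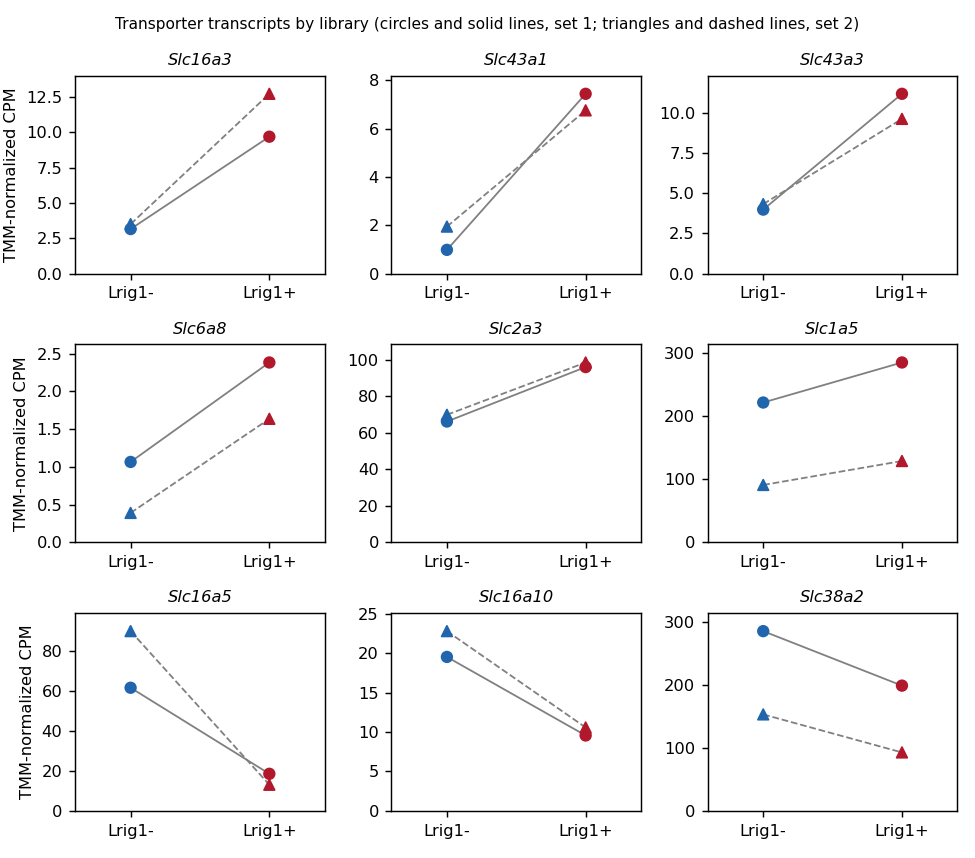
CPM by library of single transporters, with CD4+Lrig1+ and CD4+Lrig1- libraries side by side and the libraries of a set joined. Slc16a3 and Slc43a1 are higher in CD4+Lrig1+ cells in both sets, and Slc16a5 lies at 13.1 to 18.5 CPM against 61.5 to 89.8 CPM.

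The promoters of Slc43a1, Slc16a3 and Slc16a10 are shown. They have the highest CPM of the carriers that differed by 2-fold or more in both sets and had an entry. Slc16a5, Slc43a3, Slc6a8 and Slc7a2 had none. The sequences are from RefSeq on GRCm38.p6, 300 bases around each annotated start, where 58 of the 82 transporters had an entry. Capitals mark the E-box CACGTG, the letters that Myc and related factors bind, and no capitals appear where neither motif searched was found. The windows are chr2:84840073-84840372 on the plus strand for Slc43a1, chr11:120948817-120949116 on the plus strand for Slc16a3, and chr10:40142205-40142504 on the minus strand for Slc16a10.
Slc43a1: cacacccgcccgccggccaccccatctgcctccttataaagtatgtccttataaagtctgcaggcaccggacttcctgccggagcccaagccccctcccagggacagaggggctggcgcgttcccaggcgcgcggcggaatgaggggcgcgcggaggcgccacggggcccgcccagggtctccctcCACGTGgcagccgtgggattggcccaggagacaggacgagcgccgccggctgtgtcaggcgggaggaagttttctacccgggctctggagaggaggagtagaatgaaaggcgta
Slc16a3: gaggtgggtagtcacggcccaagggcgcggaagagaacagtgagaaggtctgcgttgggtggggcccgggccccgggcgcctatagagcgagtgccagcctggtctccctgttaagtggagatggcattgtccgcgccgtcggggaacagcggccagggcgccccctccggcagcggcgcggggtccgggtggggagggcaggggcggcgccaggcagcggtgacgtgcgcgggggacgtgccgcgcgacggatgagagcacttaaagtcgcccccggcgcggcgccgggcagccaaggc
Slc16a10: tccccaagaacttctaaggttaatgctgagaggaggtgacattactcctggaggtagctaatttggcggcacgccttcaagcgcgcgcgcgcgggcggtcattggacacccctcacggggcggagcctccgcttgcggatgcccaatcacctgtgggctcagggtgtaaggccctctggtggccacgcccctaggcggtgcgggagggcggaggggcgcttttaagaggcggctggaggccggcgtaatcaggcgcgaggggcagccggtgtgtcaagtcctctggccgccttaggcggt

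The Slc43a1 window holds 1 E-box, beginning at position -64 from the start site. Searched on both strands, CACGTG was in 10 of 79 transporter windows (12.7%) and in 7.15% of all 32851 windows. The core of the amino acid response element, TGATGNAA, was in 5 of 79 transporter windows (6.33%) and in 3.97% of all windows, in Slc1a4, Slc6a21, Slc7a7 and Slc7a11. The windows printed are rich in G and C, at 67.7%, 73.3% and 65.3% in the order shown, where the median of all windows was 52.7%.

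The glutamine carriers went in different directions. Slc1a5 (ASCT2, gene ID 20514, chromosome 7 from 16781334 to 16798274) was at 285 against 222 CPM in set 1 and at 129 against 90.8 CPM in set 2. It was higher in CD4+Lrig1+ cells within each set, while the groups overlapped across sets (log2 difference 0.41, SE 0.67, adjusted p = 1.00, and 0.00661 with the set term). Slc38a2 (SNAT2, chromosome 15 from 96687392 to 96699728) was at 199 against 285 CPM in set 1 and at 92.8 against 153 CPM in set 2. It was lower in CD4+Lrig1+ cells within each set (log2 difference -0.59, SE 0.58, adjusted p = 1.00, and 0.00172 with the set term). In fits with no set term, the log2 difference was -0.0344 with the CD4+Lrig1- library of set 1 left out and -1.22 with its CD4+Lrig1+ partner left out. Within each library, the FPKM of Slc1a5 was 2.44 and 2.32 times that of Slc38a2 in CD4+Lrig1+ cells and 1.32 and 1.01 times in CD4+Lrig1- cells. Slc38a1 (SNAT1) was at 205 against 203 CPM in set 1 and at 130 CPM in both libraries of set 2. Slc38a10, named here as an abundant gene of the same family, lay at 143 against 123 CPM and 111 against 95.7 CPM. Neither Slc38a1 nor Slc38a10 was called.

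The glucose carriers differed from each other as well. Slc2a3 (GLUT3, gene ID 20527) was at 96.1 and 98.6 CPM in CD4+Lrig1+ cells and at 66.2 and 69.9 CPM in CD4+Lrig1- cells, without overlap (log2 difference 0.52, SE 0.26, adjusted p = 1.00, and 0.00179 with the set term). Slc2a1 (GLUT1) was at 44.7 against 41.4 CPM in set 1 and at 47.9 against 49.0 CPM in set 2, with no common direction. The ratio of Slc2a3 to Slc2a1 in FPKM was 1.38 and 1.33 in CD4+Lrig1+ cells and 1.02 and 0.923 in CD4+Lrig1- cells.

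CD98, its best known partners and, apart from these, the cationic carrier Slc7a1 differed little within a set. Slc3a2 was at 99.4 against 95.4 CPM and at 134 against 124 CPM, and Slc7a5 (LAT1) at 44.6 against 44.9 CPM and at 61.4 against 68.0 CPM. Slc7a6 (y+LAT2) lay at 67.6 against 63.7 CPM and at 40.0 against 41.0 CPM. Slc7a1 (CAT1), which carries arginine and lysine, lay at 95.6 against 104 CPM and at 77.4 against 94.4 CPM. None of these 4 genes was called in either fit. Slc7a11, the cystine and glutamate exchanger xCT, had 0 and 13 counts in set 1 and 11 and 8 counts in set 2, too few to be tested.

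Light chains at low levels were called with the set term. Slc7a7 (y+LAT1) had 103 against 55 counts in set 1 and 240 against 108 counts in set 2 (adjusted p = 1.00, and 0.0416 with the set term). Slc7a8 (LAT2) was at 0.731 against 0.209 CPM and 2.94 against 1.20 CPM (adjusted p = 1.00, and 0.0251 with the set term). Without a set term, its log2 difference was 0.04 with the CD4+Lrig1+ library of set 2 left out and 3.13 with its CD4+Lrig1- partner left out. Both genes were higher in set 2, as was the myeloid marker sum. The sums of the B cell, natural killer cell, CD8 T cell, plasma cell, erythroid and T cell identity markers were higher in set 2 as well. The part of any of these cells in the 2 genes was not tested. Of the 12 myeloid markers, 5 were higher and 3 lower in CD4+Lrig1+ cells in both sets. The Slc7a7 exons overlap Oxa1l on the opposite strand. The cationic carrier Slc7a2 had 11 against 4 counts and 40 against 16 counts, and was not called.

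In the Slc6 family, Slc6a8, the creatine carrier, was at 2.38 against 1.07 CPM and 1.64 against 0.389 CPM, without overlap (adjusted p = 1.00, and 0.0215 with the set term). Slc6a6, the taurine carrier and the most abundant of the family, was at 143 against 144 CPM and 97.1 against 98.6 CPM.

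Among the transporters with few counts, 13 were at 0 in both CD4+Lrig1- libraries and counted in a CD4+Lrig1+ library, and 2 were the reverse. Over all 22988 genes with a count, 8.37% and 6.29% did so, while the 13 were 21.0% of the 62 transporters with a count. Slc2a13, a myo-inositol carrier, had 15 and 10 counts in CD4+Lrig1+ cells and 0 in both CD4+Lrig1- libraries. With 3 counts put in place of each 0, the ratios were 4.60-fold and 3.14-fold. They leave out the counting error of the 15 and 10 counts and are not lower bounds. Slc2a13 is named here for its 0 counts and did not enter the test. Most of the other 12 had under 10 counts in every library.

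Transcript shares were compared for the 24 transporters with 100 counts in every library, of which 15 had the same leading transcript throughout. In 4 genes, 7 transcripts moved their share by 10 points or more the same way in both sets. Other genes were not counted in this way, so the 7 are not shown to be particular to transporters. For Slc16a3, NM_030696 had 305 and 125 counts in CD4+Lrig1+ cells and 0 in both CD4+Lrig1- libraries, while NM_001038653 had 137 and 553 against 147 and 189 counts. In Slc43a3, NM_021398 took 41.7% and 46.8% of the counts in CD4+Lrig1+ cells and 0% and 5.13% in CD4+Lrig1- cells. Estimates for overlapping isoforms also differed between libraries of 1 group: XM_030242273 of Slc1a5 had 3242 counts in the CD4+Lrig1- library of set 1 and 3 in that of set 2.

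**Figure D4:**
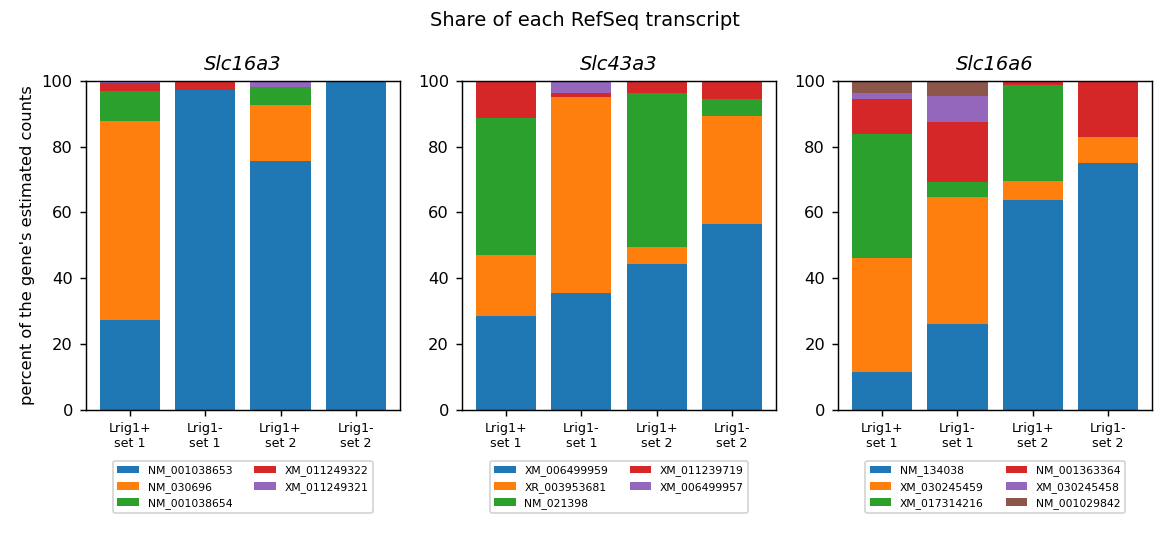
Share of each gene's counts, in percent, assigned to single transcripts in each library. NM_030696 of Slc16a3 takes 60.5% and 17.1% in CD4+Lrig1+ cells and 0% in CD4+Lrig1- cells.

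Genes that sense or use the carried nutrients were counted in the same fits, and the quasi-likelihood test without the set term called none in any of the 6 lists. At an unadjusted p under 0.05 it had 1 gene of mTORC1 sensing, 2 enzymes, 3 genes of glucose and lactate handling and 1 of the carriers' partners and traffic higher, and 1 and 2 of the last pair of lists lower, where 4.18% of all genes were higher and 1.41% lower. DESeq2 called Rragd, Bcat1, Arrdc4 and Tbc1d4 higher, 1 in each of these 4 lists, and none lower, beside 1.63% and 0.31% of all genes. With the set term, 8 of 20 genes of the ATF4 amino acid response were called higher and 2 lower, with median log2 ratios of 0.26 and 0.04 in the sets, beside 14.6% and 12.8% of all genes called. They included Psat1 of serine synthesis, at 47.3 against 23.98 CPM and 92.9 against 48.4 CPM, and Asns, asparagine synthetase, at 1.31 against 0.230 CPM and 3.62 against 0.685 CPM. By size, 2 of the 20 were at least 2-fold higher in both sets and 0 lower, where 7.37% and 3.01% of all genes were. The lowest log2 ratio of any of the 20 was -3.01 in set 1 and -1.20 in set 2. Of 32 genes of amino acid sensing by mTORC1, 6 were called higher with the set term and 2 lower (medians 0.12 and -0.09). The shares of all genes called were the same 14.6% and 12.8%. At any size, 11 of the 32 were higher in both sets and 11 lower, where 36.5% and 41.3% of all genes were. Among them Rragd, a Rag GTPase of the lysosome, was at 21.9 against 2.94 CPM and 16.6 against 3.13 CPM.

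Of 21 enzymes of amino acid metabolism, 5 were higher and 2 lower (medians 0.09 and 0.11), where 14.6% and 12.8% of all genes were. By size, 2 of the 21 were at least 2-fold higher in both sets and 2 were lower, where 7.37% and 3.01% of all genes were. The lowest log2 ratio of any of the 21 was -1.45 in set 1 and -2.11 in set 2. Bcat1, which transaminates leucine, isoleucine and valine, was at 11.0 against 0.627 CPM and 15.2 against 1.09 CPM. Odc1, which makes putrescine from ornithine, was at 149 against 47.0 CPM and 218 against 65.9 CPM. Of 20 genes of glucose and lactate handling, 7 were higher and 5 lower (medians 0.23 and 0.10), against the same shares of all genes. Hif1a, a regulator of glycolytic genes, was at 275 against 126 CPM and 305 against 138 CPM. Pdk1, which restrains pyruvate entry into mitochondria, was at 160 against 337 CPM and 115 against 322 CPM. Emb, an accessory protein of lactate carriers, was likewise lower in CD4+Lrig1+ cells, at 135 against 231 CPM and 215 against 432 CPM.

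Of 12 genes for partners and traffic of the carriers, 3 were higher and 5 lower (medians -0.07 and -0.21), where 14.6% and 12.8% of all genes were. Tbc1d4, which controls movement of glucose carriers to the surface, was at 275 against 60.6 CPM and 325 against 55.3 CPM. Sgk1, a kinase acting on membrane carriers, was at 40.0 against 85.8 CPM and 25.4 against 84.8 CPM. Of 12 other lysosomal and vesicular carriers, 2 were higher and 3 lower (medians -0.10 and -0.24), beside those shares. Slc36a4, 1 of those higher, was at 26.9 against 15.6 CPM and 24.4 against 16.9 CPM. By size, 0 of the 12 were at least 2-fold higher in both sets and 1 was lower, where 7.37% and 3.01% of all genes were. The lowest log2 ratio of any of the 12 was -1.28 in set 1 and -2.38 in set 2.

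**Figure D5:**
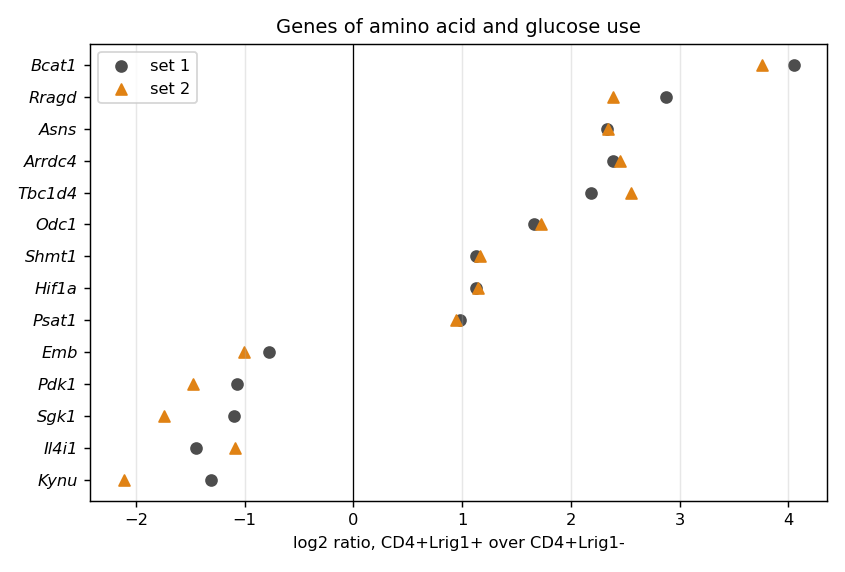
CD4+Lrig1+ to CD4+Lrig1- log2 ratio in each set for 14 genes of amino acid and glucose use, picked after their values were seen from those called with the set term. Each gene has the same sign in both sets, which this choice of genes favours.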

How the data were processed

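For the 2 groups, 2 tables of transcripts were used, each with 1 CD4+Lrig1+ and 1 CD4+Lrig1- library. Per the submitters' processing notes, the tools were Trimmomatic 0.38, HISAT2 2.1.0, Bowtie2 2.3.4.1 and StringTie 2.1.3b, with GRCm38. The authors estimated counts per transcript with StringTie, and these were deposited without normalization. FPKM, scaled by transcript length and library, and TPM, which scales each library to the same sum, were also deposited by the authors, and TPM was not used. The third table, with 6 columns whose names do not give a group, was not used.

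Counts were summed per gene over 129299 transcripts. Genes were filtered on low counts with edgeR and tested with edgeR 4.0.16 (quasi-likelihood, TMM scaling, Benjamini-Hochberg adjustment) in R 4.3.3. A term for the set, DESeq2 1.42.0 and limma 3.58.1 were alternatives. Ratios within a set are of log2 CPM with a prior count of 2. Named genes were the carriers best known in T cells, the 2 most abundant of each family, those past 2-fold in both sets, those called with the set term, and up to 4 of each pathway list. The genes of a pathway list were those with its smallest p in the fit with the set term. The members and lists were chosen with earlier results of these data known. Of these methods, only the quasi-likelihood fit, without and with the set term, was tested on simulated data.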

Additional observations from a re-analysis of the deposited data

How the results depend on the processing

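No paired analysis was possible because the columns carry no replicate numbers, other than the fit with the term for the set, which pairs the libraries of a table. Calls depended on that term and on the tool. For transporters, against 0 higher and 0 lower in the quasi-likelihood test, the counts higher and lower were 9 and 4 with the set term, 1 and 1 with DESeq2's Wald test, 0 and 1 with edgeR's exact test, and, chosen after seeing the data, 6 and 3 with DESeq2 and the set term, 12 and 7 with the set term over genes with 10 counts in every library, and 8 and 5 with the set term and DESeq2 size factors. Over all genes these were 2358 and 2056, 263 and 50, 196 and 17, 1847 and 1960, 2615 and 2669, and 2208 and 2388. Leaving out 1 library gave 1 to 88 genes higher and 0 to 2 lower, and 0 transporters. Transporters past 2-fold in both sets, 7 higher and 2 lower, became 3 and 1 on log2(FPKM + 0.1) and 2 and 1 on log2(FPKM + 1). On log2(FPKM + 0.1) these were 7.32% and 2.44% of the 41, against 5.58% and 1.89% of all genes. On log2(FPKM + 1) they were 4.88% and 2.44%, against 2.25% and 0.62%. Past 1.5-fold, 5 were lower (12.2%, against 7.02% of all genes). Slc6a6 turned to 0.0340 and 0.0363 in limma on log2(FPKM + 1) and log2(FPKM + 0.1), and Slc38a1 to -0.0239 with DESeq2 or its size factors and -0.0187 with either and the set term. Leaving out a library, with no term for the set, gave log2 differences of -0.0448 to 1.31 for Slc1a4, -0.26 to 1.22 for Slc1a5, -0.0382 to 0.17 for Slc2a1, -1.73 to 3.81 for Slc3a1, -0.15 to 0.32 for Slc3a2, -0.30 to 0.32 for Slc6a6, -0.34 to 0.24 for Slc7a5, -0.37 to 0.43 for Slc7a6, -0.19 to 0.83 for Slc16a1, -1.14 to 0.51 for Slc16a6, -0.92 to 8.93 for Slc16a9 and -0.34 to 0.40 for Slc38a1. The sign held but the value moved by over 1.5 times for Slc38a2 (-1.22 to -0.0344), Slc7a8 (0.04 to 3.13), Slc7a2 (0.14 to 2.42), Slc7a7 (0.33 to 1.45), Slc6a8 (0.92 to 2.40), Slc43a2 (0.18 to 0.63), Slc38a10 (0.04 to 0.45) and Slc7a1 (-0.33 to -0.06). The cause was not tested.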
